A study of Mus musculus with 8 samples.

Results

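The thioredoxin-interacting protein gene Txnip, its alpha-arrestin relatives and the glucose sensors that act on them were followed in N2a cells, a mouse neuroblastoma line. The set holds 8 genes of the 49164 with counts: the alpha-arrestin genes Txnip, Arrdc1, Arrdc2, Arrdc3 and Arrdc4, the sensor gene Mlxip with its partner Mlx, and the thioredoxin gene Txn1. They were selected by gene name with earlier results of the same comparison known. Their differences between the groups are therefore a description, given without a test, and the counts of members called are read for nothing.

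PolyA RNA was sequenced from 2 groups of 4 libraries. The first group is control cells. The second is cells transiently transfected with a construct for Nrsn2, which encodes the vesicle membrane protein neurensin-2, and collected 24 hours later. The labels give the control cells the same protocol and do not say what those cells received, so transfection itself and Nrsn2 cannot be told apart. All cells share a high-glucose medium, no separate cultures are named for the replicates, and p-values measure the spread between these libraries, which may be technical.

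Alpha-arrestins are adaptor proteins that bring ubiquitin ligases of the NEDD4 family to membrane proteins and so send those proteins into the cell. Txnip is the best-known member: it binds reduced thioredoxin, and it lowers glucose uptake by drawing glucose transporters from the cell surface. The Mlxip gene encodes MondoA, a transcription factor that responds to phosphorylated glucose. With its dimer partner Mlx, MondoA binds carbohydrate response elements, paired E-box-like motifs, and Txnip and Arrdc4 are its best-known targets.

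The promoter windows of these 2 targets are shown because both are textbook MondoA targets, yet their transcript levels in N2a cells lay far apart, as given further on. The windows are those of RefSeq on GRCm38.p6, an older build than the GRCm39 of the counts, and run from 250 bases before the gene start to 50 bases from it. Capitals mark every match, on either strand, to the letters CCAAT, to the E-box CACGTG, and to a tandem element made of CACGNG, any 5 bases and CACGNG.
Txnip, chr3:96557707-96558006, plus strand: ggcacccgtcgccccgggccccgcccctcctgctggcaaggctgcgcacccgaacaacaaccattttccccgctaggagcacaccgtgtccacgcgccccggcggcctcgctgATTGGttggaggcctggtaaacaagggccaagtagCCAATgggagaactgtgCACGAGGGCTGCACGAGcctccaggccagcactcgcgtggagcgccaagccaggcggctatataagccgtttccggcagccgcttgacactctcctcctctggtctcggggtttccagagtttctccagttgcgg
Arrdc4, chr7:68749189-68749488, minus strand: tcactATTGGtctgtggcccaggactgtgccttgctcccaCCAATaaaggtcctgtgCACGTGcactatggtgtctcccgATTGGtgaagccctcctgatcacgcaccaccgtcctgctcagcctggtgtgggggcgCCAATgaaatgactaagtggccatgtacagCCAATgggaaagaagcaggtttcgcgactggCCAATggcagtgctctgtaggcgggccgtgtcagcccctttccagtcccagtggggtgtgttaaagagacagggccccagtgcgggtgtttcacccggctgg

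The Txnip window held 1 tandem element, 85 to 69 bases before the start, whose repeated unit (capitals) and spacer read as follows.
Txnip element, chr3:96557872-96557888: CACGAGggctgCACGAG
This match is rare: 16 of 32851 windows (0.0487%), from 15 of 27025 genes, held the tandem element on either strand. The letters searched were chosen with the Txnip sequence in view. An inverted form, with CACGNG followed after 5 bases by CNCGTG, was in 0.0457% of windows and in none of the members' windows. The other 7 members' 9 windows held no tandem element of these letters. A site with other letters, or one outside the window, would not be found by this search. The E-box, which can lie within either element, was in 7.15% of all windows, and among the members it was in those of Arrdc4 and Mlx. The Arrdc4 window also held 6 CCAAT boxes, a number reached by 26 of all windows (0.0791%), while the Txnip window held 2, a number reached by 11.7%. A match to letters is a description and shows no binding. Of the 14 genes other than Txnip with the tandem element, 8 were tested, of which 2 were called higher and 1 lower, with a median log2 fold change of 0.07. These are 37.5% called, beside 35.4% of all tested genes.

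Nrsn2 itself, the check on the labels, held 6.54 to 10.6 CPM, counts scaled to library size, in the control libraries and 147 to 173 CPM in the overexpression libraries. The 8 libraries held 15347255 to 21395096 counts. Overexpression library 1 stood apart from the other overexpression libraries: pairs that include it had a chi-square over its degrees of freedom of 13.0 to 15.9, against 2.58 to 6.36 for its group's remaining pairs. Its share of mitochondrial transcripts was 4.66%, against 3.38 to 3.75% in the other overexpression libraries and 4.81 to 5.65% in the control libraries. Control library 4 also lay apart from its group. Pairs that include it had a chi-square over its degrees of freedom of 7.77 to 11.0, against 4.51 to 6.92 for the remaining control pairs. The labelled cell type was checked on 18 sympathoadrenal markers, of which 14 were tested, with 4 called higher and 6 lower. Their sum was 2311 to 2600 CPM in control libraries and lower, at 1693 to 2024 CPM, in overexpression libraries. Chgb, a granin of secretory granules, had means of 1074 and 629.6 CPM, and most of the fall in the sum was its own. Markers with a higher mean in the overexpression group include Gata2 (79.9 and 116 CPM) and Uchl1 (200 and 252 CPM). Hand1, Nefl and Nefm were under 1 CPM. Summed markers of macrophages and leukocytes held 1.07 to 1.47 CPM in control and 1.66 to 2.62 CPM in overexpression libraries. Its defining gene Ptprc was at 0.0711 and 0.199 CPM in the group means, 6 of the 7 leukocyte markers were under 1 CPM, and the seventh was called higher. Summed fibroblast markers held 7.34 to 9.12 CPM in control and 7.05 to 8.28 CPM in overexpression libraries, and glial markers 14.6 to 17.7 and 11.6 to 14.8 CPM. The part of these in the results was not tested.

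Across all genes, 5369 of 15187 tested genes (35.4%) were called at an adjusted p under 0.05, 18.6% higher and 16.8% lower. Of the 8 members, 7 passed the filter on low counts, and 3 of the 7 were called, all of them higher: Txnip, Arrdc3 and Txn1. The same 3 had groups that did not overlap, as did 32.6% of all tested genes. Arrdc4 did not pass the filter, and Arrdc1, Arrdc2, Mlxip and Mlx were not called.

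Txnip (ENSMUSG00000038393; GRCm39 chromosome 3, 96465273 to 96469199, plus strand) showed the largest log2 fold change of the 7 members tested. Control libraries 1 to 4 held 9.59, 11.5, 11.7 and 10.2 CPM, and overexpression libraries 1 to 4 held 32.4, 29.6, 27.7 and 30.3 CPM. Every overexpression library was thus well above every control library, and the libraries within each group lay close together. Group means with their SD (n = 4 each) were 10.7 ± 0.999 and 30.0 ± 1.93 CPM. The log2 fold change was 1.48 with an SE of 0.09, or 2.80-fold; all further log2 fold changes are also given ± SE. Among the 15187 tested genes, 158 (1.04%) had a larger log2 fold change. Txnip was of ordinary abundance in control cells, where 54.2% of tested genes had a higher CPM. In counts it held 163 to 209 in control and 534 to 651 in overexpression libraries, so it passed the filter through both groups. In the authors' deposited table its log2 fold change was 1.48 with a standard error of 0.10.

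A lncRNA on the opposite strand, Gm15441, overlaps Txnip, and the kit does not mark strand. Its libraries held 0, 2, 0 and 2 counts in control and 4, 11, 6 and 3 with overexpression. These counts lay far below those of Txnip, and reads of the pair cannot be told apart where the genes overlap.

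**Figure D1:**
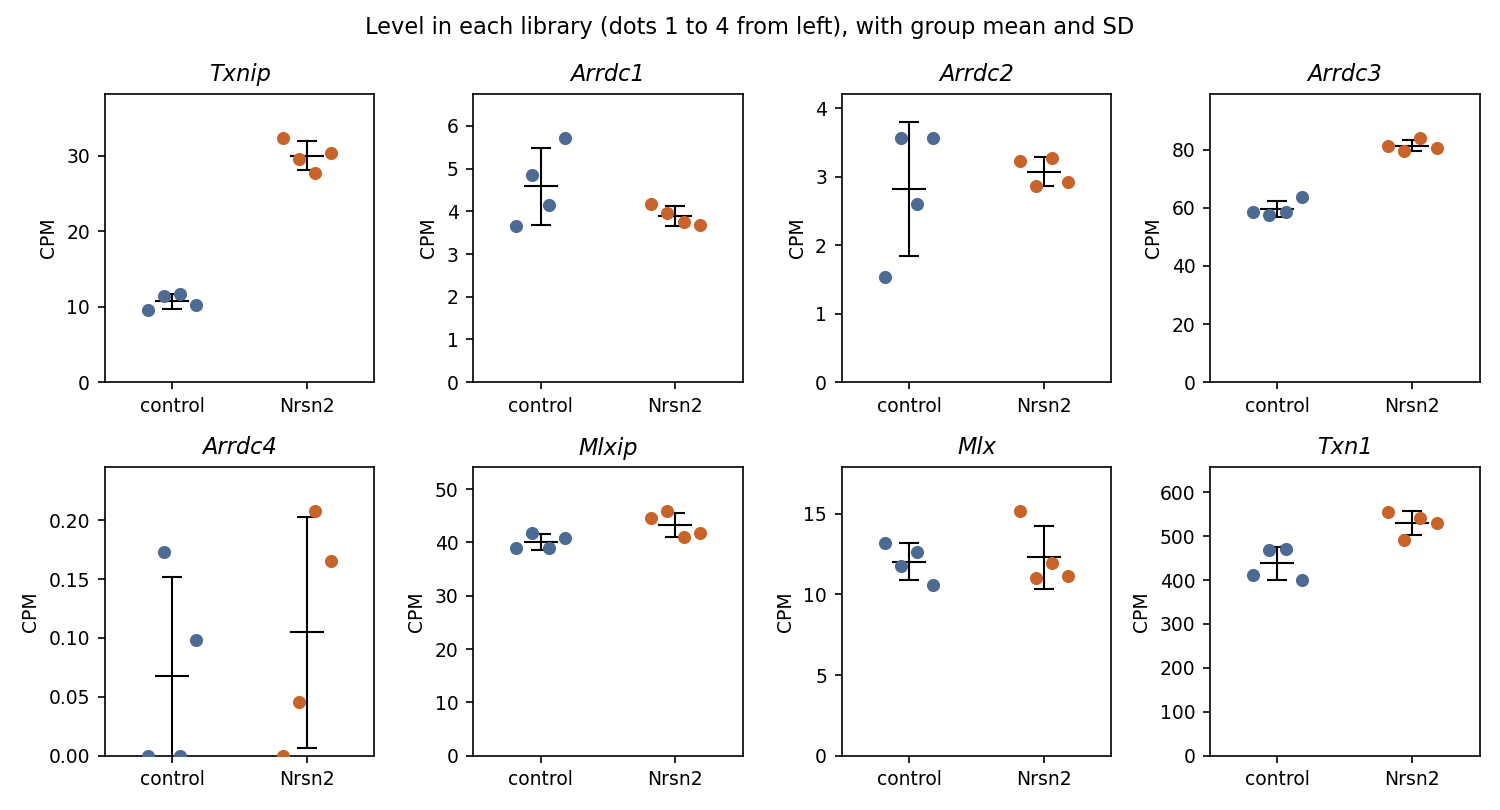
Levels of the 8 members in each library, as CPM on linear axes that start at 0 and differ between panels; dots are libraries 1 to 4 of the control and Nrsn2 overexpression groups, bars the mean and SD. Txnip sits at 9.59 to 11.7 CPM in control and 27.7 to 32.4 CPM in overexpression libraries, and Arrdc4 lies near 0 in both.

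Arrdc3 (ENSMUSG00000074794; chromosome 13, 81031503 to 81044161, plus strand), an alpha-arrestin known for its part in the trafficking of beta-adrenergic receptors, was also higher. Its control libraries held 58.6, 57.4, 58.3 and 63.7 CPM, and its overexpression libraries 81.2, 79.4, 84.1 and 80.6 CPM. The groups did not overlap, and the spread was the smallest of the members with overexpression, at 2.44% of the mean. Mean levels were 59.5 ± 2.85 and 81.3 ± 1.99 CPM, with n = 4 and the SD as error as for all levels here, and the log2 fold change was 0.45 ± 0.06. The overlapping lncRNA 1700023H06Rik on the opposite strand held 11 to 25 counts per library, against 874 to 1746 for Arrdc3.

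The remaining alpha-arrestins were scarce. Arrdc1 (ENSMUSG00000026972; chromosome 2, 24815364 to 24825264, minus strand), which is known for driving the budding of vesicles from the cell surface, held 3.65, 4.84, 4.14 and 5.73 CPM in control libraries 1 to 4 and 4.18, 3.96, 3.74 and 3.69 CPM in the overexpression libraries. The overexpression libraries fell within the range of the control libraries, with a log2 fold change of -0.25 ± 0.16. Without control library 4 it was -0.12. With offsets for GC content and length it was -0.39 and was called, the only one of the 14 alternatives in which it was.

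Arrdc2 (ENSMUSG00000002910; chromosome 8, 71287773 to 71292364, minus strand), an alpha-arrestin less studied than the others, held 1.53, 3.57, 2.60 and 3.57 CPM in control and 3.24, 2.87, 3.27 and 2.92 CPM in overexpression libraries. Control library 1 was low, and the groups overlapped. The log2 fold change was 0.11 ± 0.22 and ranged from -0.10 to 0.25 over the alternatives.

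Arrdc4 (ENSMUSG00000042659; chromosome 7, 68386743 to 68398989, minus strand), the closest partner of Txnip among MondoA targets, was barely detected. The control libraries held 0, 3, 0 and 2 counts, and the overexpression libraries 0, 1, 4 and 3 counts. These are 13 counts over all 8 libraries, 5 in control and 8 with overexpression, so a difference was not detectable at this depth. A count of 0 allows up to 0.177 CPM in control library 1, 0.200 CPM in control library 3 and 0.167 CPM in overexpression library 1, a limit of 3 counts that covers counting error only. The authors' deposited table gave Arrdc4 a log2 fold change of 0.58 with a standard error of 1.26.

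On the scale of CPM per kb of exon, which allows levels of different genes to be compared, the 5 alpha-arrestins together rose from 15.7 ± 1.04 to 25.1 ± 0.602 in sum (SD, n = 4 each). The sum was 14.4 to 16.9 in the control libraries and 24.6 to 26.0 in the overexpression libraries. Arrdc3 was the largest part in every library. Its share was 65.2, 57.6, 60.0 and 60.3% in control libraries 1 to 4 and 49.8, 51.5, 54.0 and 51.5% in overexpression libraries 1 to 4. The share of Txnip was 21.4, 23.1, 24.1 and 19.4% in control and 39.9, 38.5, 35.7 and 38.8% in overexpression libraries. In level per length, Txnip thus stood at 36.3 ± 4.40% of Arrdc3 in control and at 74.1 ± 5.81% with overexpression. The share of Arrdc1 went from 11.6 ± 1.54 to 6.17 ± 0.273% and that of Arrdc2 from 5.50 ± 1.65 to 3.78 ± 0.224%. Arrdc4 held 0.103% and 0.104%. These shares rest on the same values as the fold changes above, and a share falls when another rises. They and the ratio to Arrdc3 also depend on the length used. All exons span 3123 bases for Txnip and 6266 for Arrdc3, and the longest transcripts 2827 and 4132. With the longest transcript, the Txnip share and its ratio to Arrdc3 are lower than given here. The SD does not cover this choice.

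**Figure D2:**
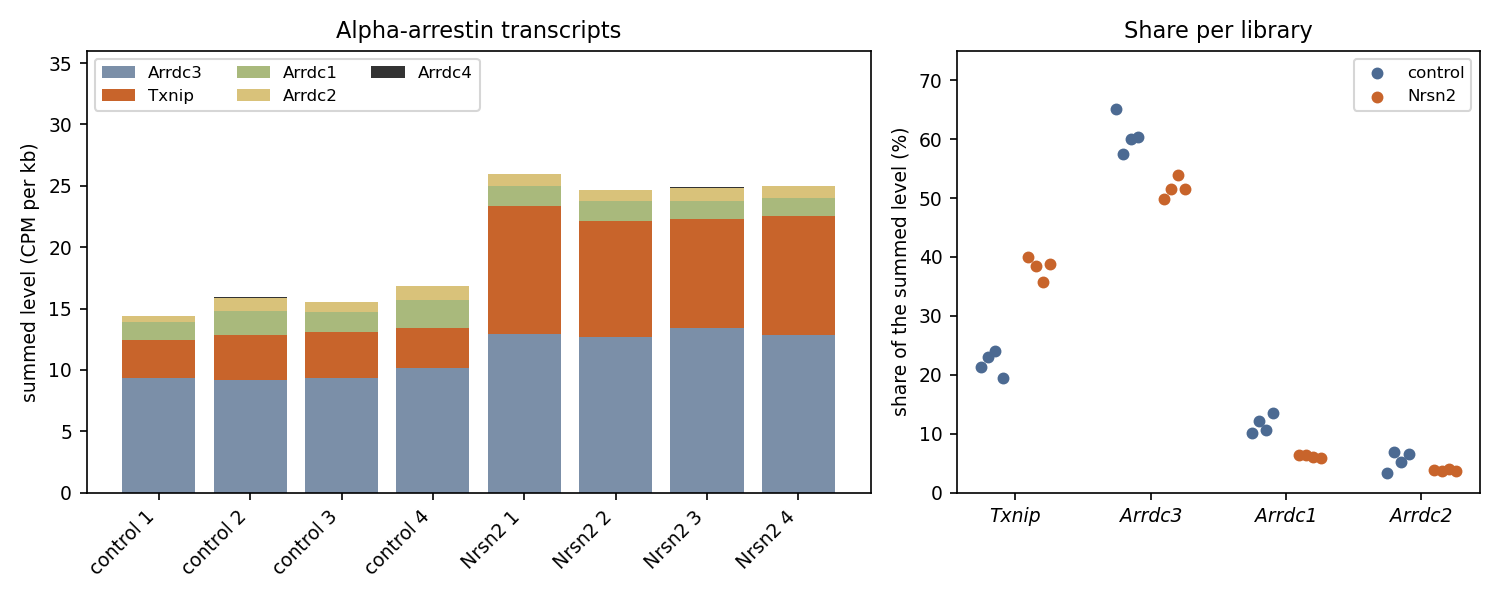
Left, the summed level of the 5 alpha-arrestins in each library in CPM per kb of exon, stacked by gene; right, the share of 4 of them in that sum in percent, 1 dot per library, with control and Nrsn2 overexpression libraries in separate colours. The Txnip share lies at 19.4 to 24.1% in control and 35.7 to 39.9% in overexpression libraries, and Arrdc3 remains the largest part throughout.

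The sensor genes differed little between the groups. Mlxip (ENSMUSG00000038342; chromosome 5, 123532861 to 123595995, plus strand) held 38.9, 41.9, 38.9 and 40.9 CPM in control libraries 1 to 4 and 44.6, 45.9, 41.0 and 41.8 CPM in overexpression libraries 1 to 4. Overexpression libraries 1 and 2 were above all control libraries, and libraries 3 and 4 lay within the control range. The log2 fold change was 0.11 ± 0.07, and 0.07 to 0.14 over the alternatives. Among the genes that overlap Mlxip, the unverified transcript Gm42907 on the same strand was lower (log2 fold change -1.47 ± 0.33; edgeR adjusted p = 0.00225), at 4 to 24 counts per library against 583 to 1009 for Mlxip.

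Mlx (ENSMUSG00000017801; chromosome 11, 100978103 to 100983033, plus strand), the dimer partner of MondoA, held 13.2, 11.8, 12.6 and 10.6 CPM in control and 15.2, 11.0, 11.9 and 11.1 CPM in overexpression libraries. Overexpression library 1, which also stood apart in its mitochondrial share, was the highest, and the other overexpression libraries lay within the control range. The log2 fold change was 0.03 ± 0.12, and -0.08 to 0.09 over the alternatives. Mlx overlaps Psmc3ip on the opposite strand, which held more counts (349 to 528) than Mlx (189 to 272) and a log2 fold change of 0.04 ± 0.09, so the value of Mlx is uncertain where reads are shared. ChREBP, the other sensor of this kind, is encoded by Mlxipl, and it was near absent with 0 to 3 counts per library.

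Txn1 (ENSMUSG00000028367; chromosome 4, 57943373 to 57956411, minus strand), the cytosolic thioredoxin that Txnip binds, was the most abundant member. Control libraries 1 to 4 held 411, 469, 472 and 400 CPM, and overexpression libraries 1 to 4 held 556, 492, 542 and 530 CPM. The lowest overexpression library lay above the highest control library by less than the SD of the control group. Txn1 averaged 438 ± 37.7 CPM in control and 530 ± 27.3 CPM with overexpression, so its log2 fold change was 0.28 ± 0.07, or 1.21-fold. The processed pseudogene Txn-ps1 held 1 to 4 counts per library. In level per length, Txnip transcripts were 0.826 ± 0.0315% of Txn1 transcripts in control and 1.91 ± 0.131% with overexpression, with 0.785 to 0.861% and 1.72 to 2.03% as the ranges over libraries.

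In CPM per kb, the order of the members in control cells was Txn1 (417 ± 35.8), Arrdc3 (9.50 ± 0.454), Mlx (6.02 ± 0.568), Mlxip (4.82 ± 0.178), Txnip (3.44 ± 0.320), Arrdc1 (1.83 ± 0.360), Arrdc2 (0.873 ± 0.302) and Arrdc4 (0.0168 ± 0.0208). No 2 neighbours in this order overlapped in their control libraries. With overexpression Txnip stood at 9.61 ± 0.617, above Mlx (6.16 ± 0.976) and Mlxip (5.20 ± 0.275) and below Arrdc3 (13.0 ± 0.317). There the ranges of Mlx, 5.51 to 7.59, and Mlxip, 4.93 to 5.51, just overlapped. Txnip was thus the one member to change its place among the others, and the order was the same with the length of the longest transcript in place of all exons.

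**Figure D3:**
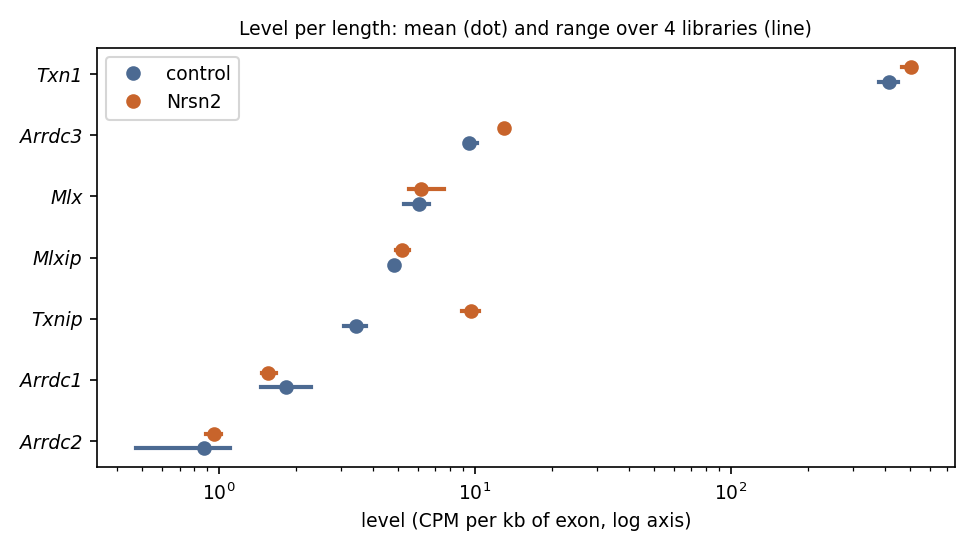
Level of the members in CPM per kb of exon on a log axis, with the mean as a dot and the range over 4 libraries as a line for the control and Nrsn2 overexpression groups. Arrdc4, whose lowest library is 0, is left out; Txnip moves from 3.44 to 9.61, past Mlxip and Mlx.

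There were 14 alternatives, which changed the scaling, the test, the filter and the offsets or left out each library in turn. Over these, the log2 fold change ranged from 1.43 to 1.52 for Txnip, 0.43 to 0.56 for Arrdc3 and 0.23 to 0.31 for Txn1. All 3 were called in each. The alternatives refit the same libraries, so these calls show dependence on the settings and add no support. None of the members shared a stretch of 31 bases with another member or with Nrsn2 in the annotated transcripts.

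**Figure D4:**
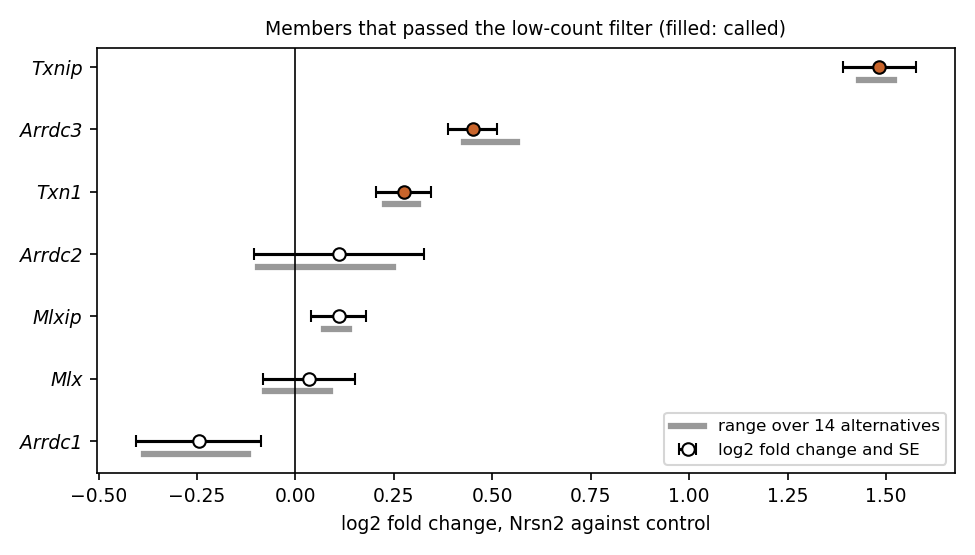
Log2 fold change of the 7 members that passed the filter, Nrsn2 overexpression against control, with the SE as a bar, and the range over 14 alternatives as a grey line beneath; filled dots were called. Txnip stands at 1.48, Arrdc3 at 0.45 and Txn1 at 0.28, and the ranges of Arrdc2 and Mlx cross 0.

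Genes outside the set, in lists of 109 distinct symbols around the same pathway, moved in both directions. Of 85 tested, 18 were higher and 19 lower, with a median log2 fold change of 0.04, against a median of -0.001 over all tested genes. These shares, like all list counts below, are to be read against the 18.6% and 16.8% of all tested genes.

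Among known targets of MondoA and ChREBP other than Txnip and Arrdc4, 3 of 14 were higher and 5 lower, with a median of -0.12. The median was -0.05 without control library 4, -0.08 without overexpression library 3, -0.20 without overexpression library 2 or with the GC and length offsets, and -0.02 with no filter. Klf10, a transcription factor gene induced by TGF-beta and by glucose, had a log2 fold change of 0.62 ± 0.07 (edgeR adjusted p = 3.16e-06) and levels of 68.3 ± 4.22 and 105 ± 7.25 CPM. Gpd1, a glycerol phosphate dehydrogenase, rose from 1.04 ± 0.374 to 3.17 ± 0.587 CPM (1.58 ± 0.24). Gpd1 was itself scarce, and the lncRNA Gm16537 overlaps it on the opposite strand at 3 to 26 counts per library. Its value is therefore uncertain where reads are shared. Elovl6, a fatty acid elongase, fell from 164 ± 7.48 to 122 ± 14.2 CPM (-0.43 ± 0.07). Ldha, lactate dehydrogenase, had a log2 fold change of -0.41 ± 0.08, and of -0.33, still called, without control library 4. That library held 2102 CPM of Ldha, control libraries 1 to 3 held 1636 to 1745 CPM, and the overexpression libraries 1303 to 1385 CPM. Targets of the same sensors thus lay on both sides.

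Of 11 tested genes of glucose transport and phosphorylation, 1 was higher and 3 lower, with a median of -0.10, which was -0.05 without control library 4 and -0.21 with the offsets. Slc2a1 and Slc2a3, the transporters GLUT1 and GLUT3 that Txnip is known to act on, were both lower. Slc2a3 held 196, 242, 190 and 387 CPM in control libraries 1 to 4 and 168, 188, 174 and 171 CPM in overexpression libraries 1 to 4. Slc2a1 held 40.0, 48.5, 40.3 and 89.6 CPM in control and 40.5, 38.5, 33.4 and 31.5 CPM in overexpression libraries. Control library 4 was far above the others for both, and also the highest for the hexokinase gene Hk2, which held 197 CPM there and 126 to 159 CPM in control libraries 1 to 3. Txnip in that library, at 10.2 CPM, lay within the range of the other control libraries.

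With all libraries the log2 fold change was -0.54 ± 0.15 for Slc2a3 (edgeR adjusted p = 0.0106), -0.61 ± 0.19 for Slc2a1 (0.0156) and -0.40 ± 0.10 for Hk2 (0.00630). Without control library 4 these were -0.26, -0.26 and -0.26, still called with adjusted p of 0.0184, 0.0450 and 0.0205. DESeq2 did not call the 2 transporter genes (adjusted p = 0.0950 for Slc2a3 and 0.0965 for Slc2a1, the highest over the alternatives). The lowest edgeR adjusted p, 8.47e-11 and 5.72e-11, came only from the fit with no filter on low counts. The next lowest, without control library 3, were edgeR adjusted p = 0.00299 and 0.00613. Hkdc1, a hexokinase-like gene, was the higher one (0.71 ± 0.26), at 1.13 ± 0.420 and 1.84 ± 0.353 CPM, and lost its call in 8 of 14 alternatives, which include leaving out control library 1, control library 4, or any of overexpression libraries 2 to 4. In this list, 1 gene was lower with DESeq2 and 5 with the GC and length offsets.

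Of the ubiquitin ligases and sorting proteins that alpha-arrestins recruit, 3 of 11 tested were higher and 3 lower, with a median of 0.02. This median had no steady sign: it ranged from -0.003 without control library 2 and 0.0019 without overexpression library 3 to 0.05 without control library 1 or overexpression library 1 and 0.09 with the offsets. Ndfip1, an adaptor of NEDD4-family ligases, fell from 135 ± 7.38 to 100 ± 11.9 CPM (-0.43 ± 0.08; edgeR adjusted p = 3.73e-04). The ligase genes Wwp1 (-0.34 ± 0.07) and Nedd4 (-0.24 ± 0.07) were lower too, and Wwp1 stood at -0.20 with the GC and length offsets. Vps4a, an ATPase that disassembles ESCRT filaments, was higher (0.37 ± 0.07).

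Of 8 tested cargo proteins and partners of Txnip, alpha-arrestins or thioredoxin, 6 were lower and 0 higher, with a median of -0.30. They include both transporter genes above. Slc11a2, a metal ion transporter, had a log2 fold change of -0.26 ± 0.06 (edgeR adjusted p = 0.00478), and the insulin receptor gene Insr one of -0.26 ± 0.07. The beta-adrenergic receptor genes did not pass the filter, and without that filter 2 genes of the list were called higher.

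In the thioredoxin, peroxiredoxin and glutaredoxin system, 3 of 23 were higher and 2 lower, with a median of 0.13. The median was 0.07 without control library 4 or overexpression library 1, and 0.06 with the GC and length offsets. Txn2, the mitochondrial thioredoxin, rose from 70.1 ± 4.23 to 87.5 ± 6.76 CPM (0.32 ± 0.07; edgeR adjusted p = 0.00184). The methionine sulfoxide reductase gene Msra was higher at a low level (0.69 ± 0.18; 1.77 ± 0.0388 to 2.86 ± 0.265 CPM). Glrx, a cytosolic glutaredoxin, fell from 26.7 ± 1.60 to 16.9 ± 1.30 CPM (-0.66 ± 0.09). The splicing factor gene Txnl4a, which shares the thioredoxin fold, was higher (0.49 ± 0.10) and overlaps Naa12 on the same strand, with 823 to 1378 counts, so its value is uncertain. Without overexpression library 1, 7 genes were higher, and 1 gene was lower when control library 3, overexpression library 3 or overexpression library 4 was left out.

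In the MYC, MAX and MLX network, 2 of 9 were higher and 1 lower, with a median of 0.05, which was 0.14 when control library 2 and 0.07 when control library 1 was left out. The higher ones were genes of the MAD repressors, Mxd1 (3.67 ± 0.537 to 6.85 ± 1.49 CPM; 0.89 ± 0.17; edgeR adjusted p = 5.33e-04) and Mxd4 (5.64 ± 0.974 to 8.75 ± 0.594 CPM; 0.63 ± 0.13), which can pair with Mlx as well as with MAX. Mxi1, of the same repressor family, had a log2 fold change of -0.29 ± 0.09 and lost its call without control library 4 or overexpression library 3. The network then had 0 lower genes, and without control library 1 it had 2. Mycn, the MYC gene of neuroblastoma, had a log2 fold change of -0.21 ± 0.10 and was not called, but it was called lower with the GC and length offsets, with these and the block, and without control library 1 (edgeR adjusted p = 0.0130, 0.0278 and 0.0389; range over the alternatives 0.0130 to 0.264).

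Of 7 tested AMPK subunits and upstream kinases, 4 were higher and 0 lower, with a median of 0.19. AMPK phosphorylates Txnip and marks it for breakdown. The beta subunit gene Prkab1 rose from 35.6 ± 3.40 to 50.7 ± 1.20 CPM (0.51 ± 0.08; edgeR adjusted p = 6.80e-05), and Stk11, the gene of the upstream kinase LKB1, had a log2 fold change of 0.37 ± 0.09 and overlaps Cbarp, at 83 to 170 counts. Prkab2 (0.19 ± 0.06) and Prkaa1 (0.17 ± 0.07, and 0.29 with the offsets) were not called in 6 and 9 of 14 alternatives. With no filter on low counts, or with any of control libraries 2 and 3 or overexpression libraries 3 and 4 left out, 2 genes were higher.

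Of the other arrestin-fold genes, 2 of 5 tested were higher and 2 lower, with a median of -0.10. The median turned to 0.25 with no filter on low counts, and it was -0.06 without control library 1 and -0.15 with the offsets. Sag, the visual arrestin of rod cells, rose from 2.19 ± 0.278 to 9.02 ± 1.38 CPM (2.03 ± 0.16; edgeR adjusted p = 7.18e-08), a larger log2 fold change than that of Txnip. Its libraries held 1.82, 2.48, 2.14 and 2.30 CPM in control and 10.8, 7.78, 8.11 and 9.36 CPM with overexpression. Vps26a, an arrestin-like subunit of the retromer, was higher (0.27 ± 0.06), and the beta-arrestin genes Arrb1 (-0.36 ± 0.09) and Arrb2 (-0.24 ± 0.08) were lower. Arrb2 lost its call in 5 of 14 alternatives, which left 1 lower gene in the list: those without the filter, control library 2, control library 3, overexpression library 3 or overexpression library 4.

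**Figure D5:**
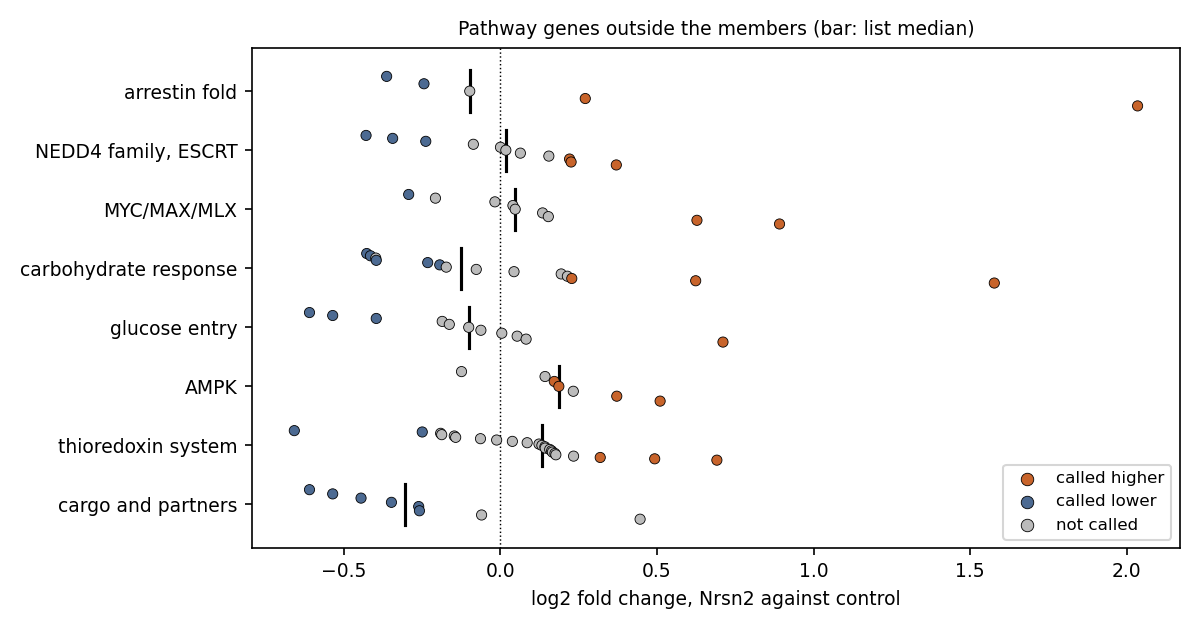
Log2 fold change, Nrsn2 overexpression against control, of tested genes outside the set, 1 dot per gene and 1 row per list, coloured by whether the gene was called; bars mark list medians. List medians lie between -0.30 for cargo and partners and 0.19 for AMPK, with Sag at 2.03 and Gpd1 at 1.58 as the largest values.

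The genes most like Txnip within the groups were sought by the Pearson correlation of log2 CPM over the 8 libraries after each group mean was taken away, among 8435 genes of at least 10 CPM outside the set. The first was Rps19bp1 (r = 0.98), followed by Vps29, Nxt1, Ppp2r5d and Cinp (r = 0.96, 0.96, 0.95 and 0.95). These are the top of a search over many genes with 6 residual degrees of freedom, and all values share the libraries and their depth. Their own log2 fold changes were 0.70, -0.02, 0.03, 0.0003 and 0.05. Counts of Arrdc4 were too few for such a search.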

How the data were processed

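The labels' protocols give single-end sequencing of polyA libraries made by an unstranded method. Cutadapt 2.10, TopHat2 2.1.1, HTSeq 2.01, DESeq2 1.36.0 and GRCm39 appear in the submitters' processing notes, without their roles; the annotation and the strand setting were not given in the sources used here. The deposited table, per the file headers, holds read counts per Ensembl gene, a normalized signal (counts divided by DESeq2 size factors), and the authors' log2 fold change with its SE, Wald score, p-value and adjusted p-value. Of 55414 rows, 49164 had counts.

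CPM are counts scaled to library size with TMM factors. The deposited counts were compared with edgeR 4.0.16 (R 4.3.3; quasi-likelihood F test, filterByExpr at a minimum count of 10, no covariate), adjusted by Benjamini-Hochberg over 15187 genes and called under 0.05, after the script had been tested on simulated data. SEs come from the F statistic. Lengths and GC content come from GENCODE M21 by gene identifier (99.8% matched), and promoter windows from RefSeq by symbol (8 of 8 members matched). Alternatives were DESeq2 1.42.0, its size factors, no filter, a replicate block, offsets for GC content and length, both together, and leaving out each library.

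The members, lists and tests were chosen with earlier results of these data known. The genes named are the members, Nrsn2, the 4 tested genes of each list with the smallest p, and the 5 genes most like Txnip; the same for Arrdc4 was not made. Some genes that this rule names are not reported here. Markers, Mlxipl and genes that overlap a named gene are named besides.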

Additional observations from a re-analysis of the deposited data

Results flagged for a closer look

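Single libraries lay far from the others of their group for 7 of 80 combinations of a named gene and a group, where chance alone marks about 1 in 20. None of them was a member of the set. In control library 4, Arrb1 was high at 68.4 CPM, Prkab2 high at 68.6 CPM and Txnl4a low at 18.9 CPM. In overexpression library 1, Stk11 was low at 48.8 CPM and Glrx high at 18.9 CPM. In overexpression library 3, Wwp1 was high at 53.8 CPM and Mxi1 low at 33.3 CPM.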

How the results depend on the processing

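The 3 members called were called under each of the 14 alternatives, and 4 members were called with offsets for GC content and length, where Arrdc1 was added. The alternatives refit the same libraries and add no independent support. Over these alternatives, 2461 to 2954 genes were called higher and 2078 to 2633 lower. Same-numbered libraries did not deviate together (correlations of -0.10, -0.03, 0.06 and -0.08). This cannot tell whether the numbers mark a shared culture or preparation, which the labels do not say. With the replicate number as a block, 3 members, 2705 higher and 2392 lower genes, and 19 higher and 18 lower list genes were called. With the block and the offsets together, 3 members were called. Of 224 counts of single lists under the alternatives, 191 were within 1.5 times the reported count, 8 were higher and 25 lower. With the longest transcript as the length, levels in CPM per kb for control and overexpression moved to 3.80 and 10.6 for Txnip, 2.76 and 2.34 for Arrdc1, 1.20 and 1.31 for Arrdc2, 14.4 and 19.7 for Arrdc3, and 5.50 and 5.93 for Mlxip, since each gene's longest transcript is shorter than all its exons together. On that scale the share of Txnip among the alpha-arrestins and its ratio to Arrdc3 are lower. Depth limited Arrdc4 and Mlxipl, whose counts reached 4 and 3 per library.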
